A study of Mus musculus with 12 samples.

Results

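The mitochondrial carrier family Slc25a was followed in the tibialis anterior (TA), the shin muscle that lifts the foot, before and after birth. Members were all protein-coding genes whose mouse symbol is Slc25a followed by a number alone, which gave 47 of the 55450 genes in the count table and of its 21571 protein-coding genes. The rule used symbols and gene type alone. RNAseq had been done on TA muscles of wild-type (WT) mice of the 129Pas background at the late fetal stage E18.5, at 2 weeks (wks) and at 7 wks of age. There were 4 mice and 4 libraries at each age and 12 libraries in all, and no transgene or treatment is named for any of them. The values are counts of reads per gene, given here as CPM, which divides the counts by the library total after scaling by trimmed mean of M-values (TMM) and multiplies them to a common total of 1e6. The comparison of ages asks how muscle transcripts change from late fetal life to early and then later postnatal muscle.

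Carriers of this family sit mostly in the inner mitochondrial membrane, which is closed to charged metabolites, and exchange nucleotides, phosphate, amino acids, carboxylates and cofactors between the cytosol and the matrix. The ADP/ATP carriers bring ADP in and take ATP out, and the phosphate carrier supplies the phosphate for ATP synthesis. In muscle the first ADP/ATP carrier, Slc25a4 (ANT1), is the form known from contracting tissue, while Slc25a5 (ANT2) is known from many tissues and from dividing cells. Other members work in the malate-aspartate shuttle, in fatty acid import as acylcarnitine, in iron delivery for haem and in the uptake of vitamins and coenzymes.

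Slc25a4 (ENSMUSG00000031633) lies on the minus strand of GRCm39 at chr8:46656538-46664325 and Slc25a5 (ENSMUSG00000016319) on the plus strand at chrX:36059223-36062462. Their coding sequences are shown because the comparison between both genes rests on reads being told apart. In the canonical GENCODE vM39 transcripts each coding sequence has 897 bases, or 299 codons with the stop codon, over 4 exons, and 695 bases (77.5%) are identical without any gap. The longest identical stretch has 20 bases. In windows of 100 bases, the read length, between 63 and 87 bases were identical, so every read within the coding sequence crosses differing bases. The 60 bases most alike, coding bases 62 to 121, span the end of exon 1 and the start of exon 2, with 6 differing bases in capitals. In the genome these bases fall within chr8:46662536-46663898 for Slc25a4 and chrX:36059445-36060505 for Slc25a5.
Slc25a4: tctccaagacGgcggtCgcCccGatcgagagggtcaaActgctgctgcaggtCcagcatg
Slc25a5: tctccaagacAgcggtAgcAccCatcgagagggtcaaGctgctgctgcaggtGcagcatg
The 60 bases least alike, coding bases 397 to 456, lie within exon 2 of each gene, at chr8:46662201-46662260 and chrX:36060781-36060840, with 24 differing bases in capitals.
Slc25a4: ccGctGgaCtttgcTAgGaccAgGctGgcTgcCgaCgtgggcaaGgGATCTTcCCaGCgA
Slc25a5: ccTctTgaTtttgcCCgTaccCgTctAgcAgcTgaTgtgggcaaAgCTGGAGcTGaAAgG
Processed copies of Slc25a5 exist elsewhere in the mouse genome, and how reads shared with such copies were counted is not given in the sources used here, so counts of Slc25a5 are less certain than those of Slc25a4. Slc25a5 also overlaps Steep1 on the opposite strand.

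Libraries held 63018968 to 123449246 counts on genes. All 6 markers of muscle fibres were present at every age, with a summed level of 8890 to 16730 CPM at E18.5, 87980 to 120600 CPM at 2 wks and 100900 to 145000 CPM at 7 wks. Libraries 3 and 4 of E18.5 stood apart from libraries 1 and 2. All 6 adipocyte markers were higher in both, with sums of 230.4 and 177.5 CPM in libraries 1 and 2 against 1925 and 2692 CPM in libraries 3 and 4. The sum of the 3 brown adipocyte markers was 3.54 and 4.76 CPM against 377.5 and 1306 CPM. Ucp1, the uncoupling protein that defines brown fat, was at 0.305 CPM and at 0 in libraries 1 and 2 and at 224.3 and 922.9 CPM in libraries 3 and 4. At 2 and 7 wks the brown adipocyte sum was 1.30 to 18.6 CPM. Other markers set single libraries or pairs of libraries apart. The cartilage and epidermis markers summed to 115.5 CPM in library 2 of E18.5 and to 11.77 to 33.25 CPM in the others of that age. Nerve and Schwann cell markers summed to 681.3 CPM in library 1 of 2 wks and to 146.9 to 258.4 CPM in the others of that age. Libraries 1 and 2 of 2 wks also differed from libraries 3 and 4. Red blood cell markers summed to 476.9 and 756.0 CPM against 145.6 and 148.4 CPM. Muscle fibre markers summed to 88000 and 87980 CPM against 108000 and 120600 CPM, with Mb among them at 654.8 and 826.0 CPM against 4086 and 6381 CPM. The part of this difference in the values of members was not tested. In bulk muscle, fewer cells of a type and less RNA per cell cannot be told apart, and the p-values below measure the spread between these mice only.

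Of the 46 members with enough counts to test, 15 were higher in both libraries 3 and 4 of E18.5 than in both 1 and 2, a pattern of 15.5% of all tested genes, and 7 were lower in both, against 18.6%. In 6 of the 15 the mean was over 2 times higher, as it was in 4.74% of all tested genes. They included Slc25a42 (5.04 times), Slc25a20 (4.44), Slc25a1 (4.06), Slc25a35 (3.73) and Slc25a48 (3.66). The carnitine/acylcarnitine carrier Slc25a20 serves fatty acid oxidation, and the citrate carrier Slc25a1 fatty acid synthesis. Slc25a4 did not follow them and was lowest in library 3. The part of the adipocyte RNA in these values was not tested, and results of members that rest on the 2 libraries are given below with and without them.

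**Figure D1:**
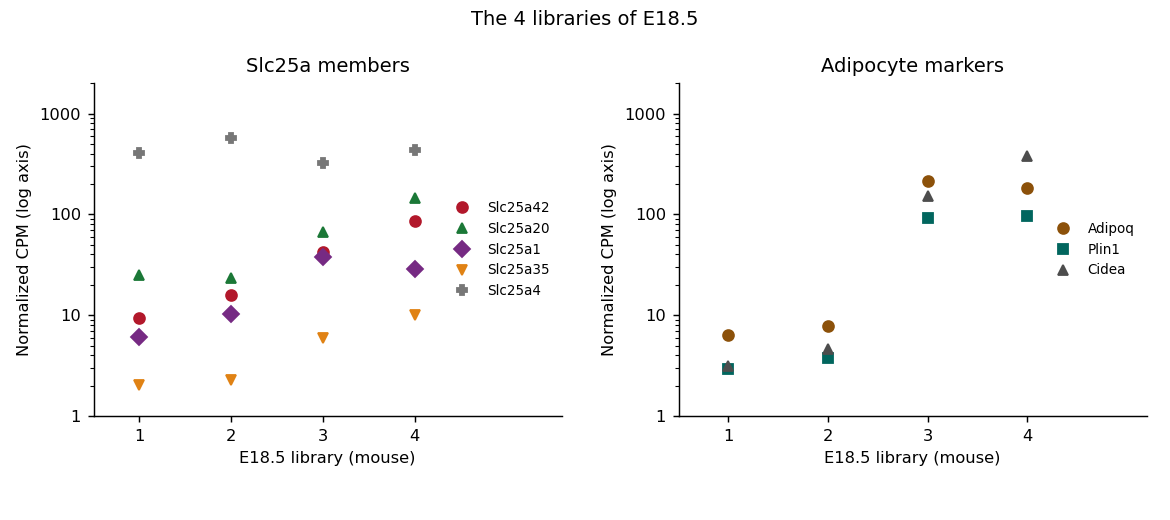
The 4 libraries of E18.5, with normalized CPM on a log axis for 5 Slc25a members on the left and 3 adipocyte markers on the right, and each point a mouse. Slc25a42, Slc25a20, Slc25a1 and Slc25a35 were higher in libraries 3 and 4 than in 1 and 2, as were Adipoq, Plin1 and Cidea, while Slc25a4 stayed between 326.9 and 573.8 CPM.

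Between E18.5 and 2 wks most of the family changed, with the largest rises in Slc25a25 and Slc25a4 and the largest fall in Slc25a24. By the quasi-likelihood test of edgeR, adjusted by the Benjamini-Hochberg method over all 19276 tested genes, 34 of 46 members passed the threshold of 0.05, 22 higher and 12 lower at the later age, whereas with scaling to total counts the 34 calls were 14 higher and 20 lower. Of all tested genes 65.7% passed, 31.5% upwards and 34.2% downwards, so the share of members that passed was near that of all genes. The median log2 fold change was 0.49 over members and -0.09 over all tested genes. Scaling to total counts moved these medians to -0.44 and -1.02, a shift of all genes by 0.93 on the log2 scale, and directions below are relative to the TMM scale. With total counts 2552 of all tested genes were called higher and 11917 lower. Without libraries 3 and 4 of E18.5, 30 members passed, 23 higher and 7 lower, beside 11573 of 19940 tested genes, 5565 higher and 6008 lower. With each library's trend over the GC content of transcripts removed, 30 passed, 24 of them higher. Of all 19276 tested genes 12428 then passed, 6392 of them higher.

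The family also came to be held by fewer genes. Counts on members made up 0.300% to 0.384% of each library at E18.5, then 0.704% to 0.832% at 2 wks and 0.541% to 0.795% at 7 wks. In CPM per kilobase of transcript, Slc25a4 made up 21.5% to 36.1% of the family sum at E18.5, then 62.8% to 66.9% at 2 wks and 58.6% to 68.5% at 7 wks. Its fetal share was 29.1% and 36.1% in libraries 1 and 2 and 21.5% and 22.3% in libraries 3 and 4. That of Slc25a5 was 12.7% and 15.9% against 21.3% and 19.2%. By means over all 4 libraries of an age, the 3 leading genes at E18.5 were Slc25a4, Slc25a3 and Slc25a5, with 62.5% of the sum over the family. At 2 wks they were Slc25a4, Slc25a3 and Slc25a11 with 84.2%, and at 7 wks the same genes with 85.5%. Slc25a5 moved from rank 3 to 4 and then 6 on this scale, its share going from 12.7% to 21.3% at E18.5 to 1.02% to 1.45% at 7 wks. Slc25a54, a relative of the ATP-Mg/phosphate carriers, had at most 3 counts in any library and was not tested.

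**Figure D2:**
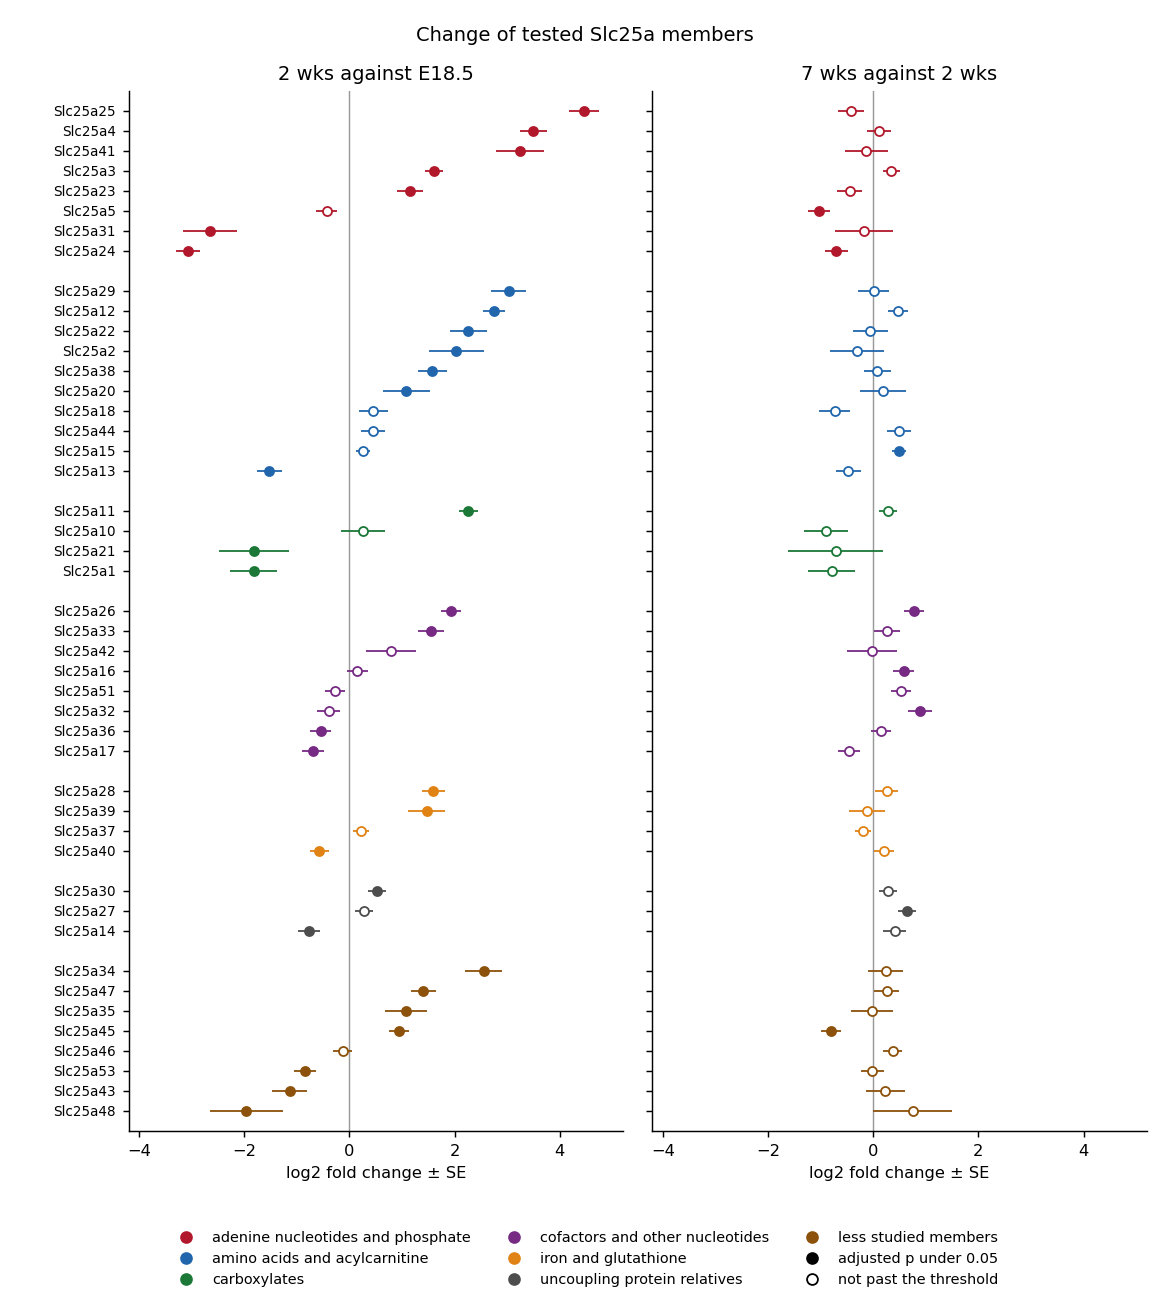
Change of the members described in the text, as log2 fold change with its standard error on the horizontal axis, from E18.5 to 2 wks on the left and from 2 to 7 wks on the right, colored by role. Filled points passed an adjusted p of 0.05, most of them on the left and 8 on the right, where values lie closer to 0.

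The ADP/ATP carriers Slc25a4 and Slc25a5 parted after E18.5. Slc25a4 was at 410.7, 573.8, 326.9 and 437.4 CPM at E18.5, at 4444, 4448, 4852 and 5953 CPM at 2 wks and at 3692, 4938, 7149 and 5420 CPM at 7 wks. All libraries of 2 and 7 wks were above all of E18.5, and those of 2 and 7 wks overlapped. Slc25a4 rose by 3.49 on the log2 scale (SE 0.26, adjusted p = 1.72e-07, edgeR), 11.3-fold by the means, and differed by 0.11 (SE 0.23, adjusted p = 0.769) between 2 and 7 wks. Slc25a5 was at 123.0, 172.7, 221.8 and 257.9 CPM at E18.5, at 165.0, 164.4, 126.8 and 117.0 CPM at 2 wks and at 62.5, 76.9, 73.0 and 67.4 CPM at 7 wks. Its libraries of E18.5 and 2 wks overlapped, and all 4 of 7 wks were below both. Slc25a5 fell by 1.03 on the log2 scale between 2 and 7 wks (SE 0.21, adjusted p = 0.00298, edgeR), to 0.488 of its mean at 2 wks. Between E18.5 and 2 wks its log2 fold change of -0.44 (SE 0.21) did not pass (adjusted p = 0.0779), was -0.60 without library 1 of E18.5 (adjusted p = 0.00805) and -0.046 without libraries 3 and 4 (adjusted p = 0.861). It passed with total counts, upper-quartile scaling, a filter of at least 10 counts in every library and DESeq2 (-1.35, -0.57, -0.55 and -0.49). Over the same ages the summed level of the 6 proliferating cell markers was 406.3 to 600 CPM, 76.2 to 153.1 CPM and 2.97 to 13.7 CPM, and its part in the values of Slc25a5 was not tested.

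A ratio within each library does not depend on how libraries are scaled. The ratio of Slc25a4 to Slc25a5 counts was 3.34, 3.32, 1.47 and 1.70 at E18.5. It was 26.9, 27.1, 38.3 and 50.9 at 2 wks and 59.1, 64.3, 97.9 and 80.4 at 7 wks. No libraries of different ages overlapped, so Slc25a4 led Slc25a5 in every library and by more at each later age. The mean log2 ratio rose by 3.91 (SE 0.38) from E18.5 to 2 wks, a 15.0-fold change, and by 1.099 (SE 0.28), 2.14-fold, from 2 to 7 wks. From E18.5 to 7 wks it rose by 5.01 (SE 0.35), 32.2-fold. Each of the 3 differences had p = 0.0286 by a two-sided exact permutation test over the 70 regroupings of 4 libraries against 4, the smallest it can give, and 0.0286 after Benjamini-Hochberg adjustment over the 3, with the later age higher in 16 of 16 pairs of libraries. Without libraries 3 and 4 of E18.5, whose ratios were lower than those of libraries 1 and 2, the first difference was 3.37 with exact p = 0.133, the smallest that 2 libraries against 4 allow. Per kilobase of transcript the ratio was 1.01 to 2.29 at E18.5, then 18.48 to 34.91 at 2 wks and 40.5 to 67.2 at 7 wks, so the levels of both genes were close in some fetal libraries on that scale.

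**Figure D3:**
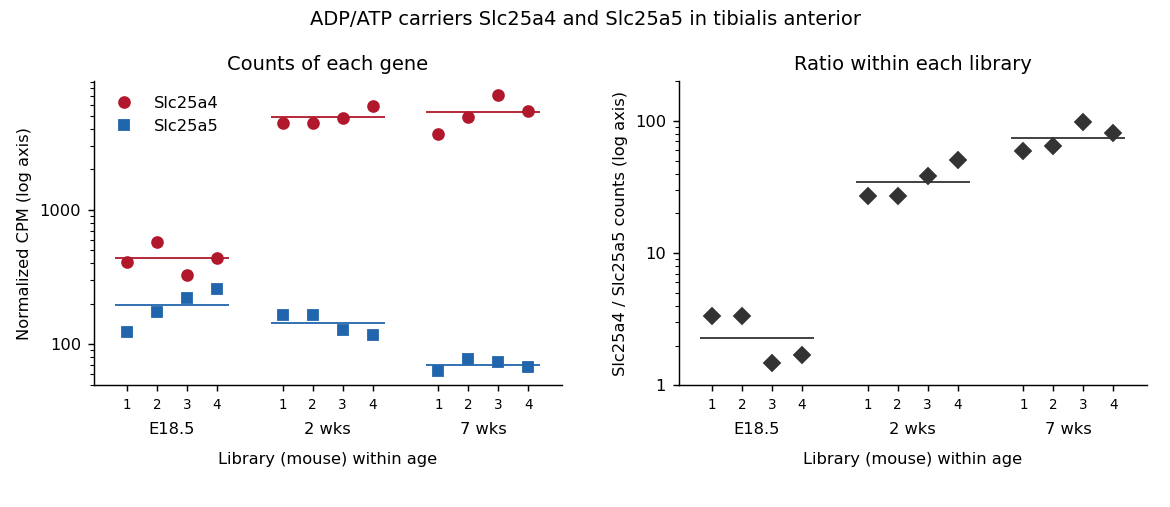
Slc25a4 and Slc25a5 in each library, as normalized CPM on a log axis on the left and as the ratio of their counts on a log axis on the right, with a line at the mean of each age (of the log2 ratios on the right). The ratio was 1.47 to 3.34 at E18.5, then 26.9 to 50.9 at 2 wks and 59.1 to 97.9 at 7 wks.

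Among the other carriers of adenine nucleotides and phosphate, the ATP-Mg/phosphate carriers exchanged places. These calcium-regulated carriers load or drain the adenine nucleotide pool of the matrix. Slc25a25 was at 4.72, 9.52, 8.49 and 6.97 CPM at E18.5, at 180.5, 125.5, 181.9 and 166.5 CPM at 2 wks and at 171.7, 80.8, 113.0 and 123.0 CPM at 7 wks. Its lowest library of 2 wks stood far above its highest of E18.5, and its rise by 4.46 on the log2 scale (SE 0.28, adjusted p = 4.34e-08), 22.04-fold by the means, was the largest of the 46 members. Slc25a24 was at 106.5, 69.6, 57.9 and 59.3 CPM at E18.5, at 9.76, 8.32, 9.94 and 6.86 CPM at 2 wks and at 6.62, 5.17, 4.15 and 5.51 CPM at 7 wks. No libraries of different ages overlapped. Slc25a24 fell by 3.07 on the log2 scale (SE 0.23, adjusted p = 1.72e-07), 8.41-fold, the largest fall of the 46 members, and between 2 and 7 wks by a further 0.70 (SE 0.21, adjusted p = 0.0261). The second of these calls was lost without library 1 or 3 of 2 wks or library 2, 3 or 4 of 7 wks, with values of -0.60 to -0.72.

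Slc25a23, another ATP-Mg/phosphate carrier, rose by 1.16 (SE 0.25, adjusted p = 9.97e-04) to 2 wks. That call was lost with total counts (0.22) and after removal of the GC trend (0.44). Slc25a41, a relative of these carriers, rose by 3.24 (SE 0.46) from 4 to 12 counts per library at E18.5 to 14 to 44 at 2 wks. The phosphate carrier Slc25a3 was at 361.5 to 474.2 CPM at E18.5, 1081 to 1481 CPM at 2 wks and 1372 to 1899 CPM at 7 wks, and its rise by 1.60 (SE 0.17, adjusted p = 3.52e-06) came with no overlap of libraries. Slc25a31, the ADP/ATP carrier known from testis, was at 0.951 to 1.82 CPM at E18.5 and 0.0671 to 0.443 CPM at 2 wks, and fell by 2.66 (SE 0.51, adjusted p = 4.40e-04). In all, 5 of the 8 tested genes of this role rose and 2 fell by edgeR's test. Of all tested genes 31.5% rose and 34.2% fell in this interval. The counts of this role and of those below are descriptions of small groups and were not tested against these shares.

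Of 10 carriers of amino acids and acylcarnitine, 6 rose and 1 fell between E18.5 and 2 wks, beside 31.5% and 34.2% of all tested genes. Slc25a12 (aralar), the calcium-regulated aspartate/glutamate carrier of the malate-aspartate shuttle in muscle and brain, was at 108.8, 121.8, 72.1 and 101.9 CPM at E18.5, at 491.2, 635.9, 728.3 and 875.1 CPM at 2 wks and at 946.6, 1017, 890.3 and 928.3 CPM at 7 wks. The libraries of the 3 ages did not overlap. It rose by 2.75 (SE 0.21, adjusted p = 2.50e-07, edgeR) to 2 wks, and its further difference of 0.47 (SE 0.20) to 7 wks did not pass (adjusted p = 0.0934). Its counterpart of the liver, Slc25a13 (citrin), fell by 1.53 (SE 0.23, adjusted p = 7.21e-05), from 3.33 to 4.26 CPM at E18.5 to 0.922 to 1.75 CPM at 2 wks.

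Slc25a29, a carrier of basic amino acids, was at 0.700, 1.60, 1.199 and 0.952 CPM at E18.5, at 8.47, 7.87, 7.83 and 12.3 CPM at 2 wks and at 5.72, 7.06, 14.8 and 8.99 CPM at 7 wks. All libraries after birth were above those of E18.5, and library 4 was highest at 2 wks. The rise to 2 wks was 3.03 on the log2 scale (SE 0.33, adjusted p = 4.26e-06), 8.17-fold by the means, and 1.85 with the GC trend removed. The glutamate carrier Slc25a22 rose by 2.26 (SE 0.35), the glycine carrier Slc25a38 by 1.58 (SE 0.27) and the ornithine carrier Slc25a2, at under 1 CPM in every library, by 2.03 (SE 0.52), the last with a call that was lost with total counts (1.11). With the GC trend removed the rises of Slc25a22 and Slc25a38 were 1.47 and 0.98. Slc25a22 was at 3.35 CPM in library 1 of E18.5 against 9.83 to 12.5 CPM in the other 3.

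Slc25a20, which brings acylcarnitines into the matrix for fatty acid oxidation, was at 25.1, 23.2, 67.5 and 146.9 CPM at E18.5 and at 118.0 to 158.2 CPM at 2 wks. Library 4 of E18.5 reached the level of 2 wks while libraries 1 and 2 did not. Its rise of 1.08 (SE 0.45, adjusted p = 0.0455) was 2.53 (SE 0.21, adjusted p = 2.56e-06) without libraries 3 and 4 of E18.5 and 1.85 without library 4 alone. The call was lost without any one of the other 11 libraries, with values of 0.80 to 1.16, and with total counts (0.16). The other ornithine carrier Slc25a15, the glutamate carrier Slc25a18 and the branched-chain amino acid carrier Slc25a44 did not pass. Slc25a15 was called lower with total counts and higher with the GC trend removed. Slc25a44 was at 12.1 to 29.9 CPM at E18.5 and 23.2 to 29.2 CPM at 2 wks, and rose by 1.01 (SE 0.18, adjusted p = 4.38e-04) without libraries 3 and 4 of E18.5.

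Of 4 carboxylate carriers 1 rose and 2 fell, beside 31.5% and 34.2% of all tested genes. The oxoglutarate carrier Slc25a11, the other carrier of the malate-aspartate shuttle, rose by 2.26 (SE 0.18, adjusted p = 3.44e-07), from 85.6 to 128.4 CPM at E18.5 to 410.7 to 584.2 CPM at 2 wks. Slc25a1, which exports citrate for fatty acid synthesis, was at 6.04, 10.4, 37.9 and 28.7 CPM at E18.5, at 6.37, 5.78, 5.79 and 5.58 CPM at 2 wks and at 2.65, 3.03, 5.07 and 2.82 CPM at 7 wks. Libraries 3 and 4 of E18.5 were far above all others, and library 1 of E18.5 lay among those of 2 wks. The fall of 1.82 (SE 0.45, adjusted p = 0.00261) became -0.48 (SE 0.29, adjusted p = 0.17) without libraries 3 and 4, and was -2.94 with the GC trend removed. Slc25a21, the oxodicarboxylate carrier, had 27 to 54 counts per library at E18.5 and 1 to 7 at 2 wks, and its fall of 1.82 (SE 0.67, adjusted p = 0.0287) was lost without libraries 3 and 4 together (-1.63), with the GC trend removed (-1.18), and without library 3 of E18.5 (-1.67), 2 of 2 wks (-1.56) or 4 of 2 wks (-1.47). The dicarboxylate carrier Slc25a10 did not pass (0.26, SE 0.42, adjusted p = 0.593), with libraries of E18.5 from 1.64 to 12.8 CPM.

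Of 9 carriers of cofactors and other nucleotides, 3 rose and 2 fell, beside 31.5% and 34.2% of all tested genes. The S-adenosylmethionine carrier Slc25a26 rose by 1.93 (SE 0.19, adjusted p = 2.24e-06) and the pyrimidine nucleotide carrier Slc25a33 by 1.55 (SE 0.25, adjusted p = 1.08e-04), each with no overlap of libraries. Slc25a36, the other pyrimidine nucleotide carrier, was lower by 0.55 (SE 0.20, adjusted p = 0.0255), but the call was lost without library 1 of E18.5 (-0.40), library 3 (-0.51) or 4 (-0.46) of 2 wks or libraries 3 and 4 of E18.5 together (-0.59), and the value was 0.21 with the GC trend removed.

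Slc25a17, which carries coenzymes across the peroxisomal membrane, was at 35.2, 30.2, 46.1 and 57.3 CPM at E18.5, at 29.1, 32.7, 21.6 and 21.0 CPM at 2 wks and at 20.3, 20.6, 17.7 and 17.2 CPM at 7 wks. Libraries 3 and 4 were the highest of E18.5, and library 2 of 2 wks overlapped with that age. Its fall of 0.69 (SE 0.20, adjusted p = 0.00848) was -0.33 (adjusted p = 0.191) without libraries 3 and 4 of E18.5 and -0.18 with the GC trend removed. The coenzyme A carrier Slc25a42 was at 9.42, 15.9, 42.4 and 85.1 CPM at E18.5 and 55.3 to 76.4 CPM at 2 wks and did not pass (0.79, SE 0.48, adjusted p = 0.16). Without libraries 3 and 4 it rose by 2.38 (SE 0.26, adjusted p = 1.62e-05). Slc25a16, the folate and FAD carrier Slc25a32 and the NAD+ carrier Slc25a51 lay between -0.40 and 0.15 and did not pass. With total counts all of them were called lower, and with the GC trend removed Slc25a16 was called higher.

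In the iron and glutathione group the mitoferrin Slc25a28 rose by 1.60 (SE 0.22, adjusted p = 3.02e-05), from 6.90 to 12.3 CPM at E18.5 to 27.8 to 36.5 CPM at 2 wks, with no overlap. Its rise was 0.40 with the GC trend removed. Mitoferrins bring iron into the matrix for haem and iron-sulfur clusters. The other mitoferrin, Slc25a37, known from red cell precursors, was at 29.6 to 43.1 CPM at E18.5 and 35.8 to 43.2 CPM at 2 wks and did not pass (0.21, SE 0.15, adjusted p = 0.229). Slc25a37 was called lower with total counts and higher with the GC trend removed. The glutathione carrier Slc25a39 rose by 1.47 (SE 0.34, adjusted p = 0.00193), a call lost with total counts (0.52) and after removal of the GC trend (0.57). It was at 6.35 CPM in library 1 of E18.5 against 22.9 to 30.2 CPM in the other 3. Its relative Slc25a40 was lower by 0.57 (SE 0.19, adjusted p = 0.0146), by 0.37 without library 1 of E18.5, and was at 0.20 with the GC trend removed.

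Of 3 relatives of the uncoupling proteins 1 rose and 1 fell, beside 31.5% and 34.2% of all tested genes. Slc25a14 was at 4.61, 3.10, 3.04 and 2.82 CPM at E18.5, at 2.11, 1.90, 1.73 and 2.22 CPM at 2 wks and at 3.01, 2.22, 3.03 and 2.28 CPM at 7 wks. The libraries of 2 wks lay below all of E18.5, while those of 7 wks overlapped with both. Slc25a14 fell by 0.77 (SE 0.21, adjusted p = 0.00564), a call lost with the GC trend removed (-0.39). Slc25a30 rose by 0.53 (SE 0.17, adjusted p = 0.0142), a call lost without libraries 3 and 4 of E18.5 (0.48, adjusted p = 0.0904), and was at -0.39 with total counts and at 1.07 with the GC trend removed. Slc25a27 did not pass (0.28, SE 0.17, adjusted p = 0.158), but was called lower with total counts and higher with the GC trend removed.

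Of 8 less studied members 4 rose and 3 fell, beside 31.5% and 34.2% of all tested genes. Slc25a34 was at 2.45, 4.54, 4.27 and 5.48 CPM at E18.5, at 16.1, 19.4, 19.8 and 42.8 CPM at 2 wks and at 15.98, 26.4, 36.2 and 37.1 CPM at 7 wks. Its libraries after birth were all above those of E18.5, and library 4 was highest at 2 wks. The rise to 2 wks was 2.55 on the log2 scale (SE 0.36, adjusted p = 3.48e-05), 5.86-fold by the means, and 1.66 with the GC trend removed. Slc25a53 was at 4.65, 3.45, 3.50 and 3.59 CPM at E18.5, at 2.15, 2.54, 1.73 and 2.01 CPM at 2 wks and at 2.29, 2.44, 1.42 and 2.16 CPM at 7 wks. It was lower in all libraries after birth, by 0.85 at 2 wks (SE 0.22, adjusted p = 0.00327), a call lost with the GC trend removed (-0.28). Slc25a47 rose by 1.41 (SE 0.24) and Slc25a45 by 0.94 (SE 0.19), and both calls were lost with total counts (0.47 and below 0.01). With the GC trend removed the rise of Slc25a47 was 0.54.

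Slc25a35 rose by 1.08 (SE 0.40, adjusted p = 0.0275), by 2.32 (SE 0.24) without libraries 3 and 4 of E18.5 and by 1.65 without library 4 alone. That call was lost without library 1 (0.82) or 2 (0.84) of E18.5 or library 4 of 2 wks (0.99), with the GC trend removed (0.70) and with total counts (0.15). Slc25a43 fell by 1.136 (SE 0.34, adjusted p = 0.00864), from 50 to 63 counts per library to 8 to 17, and was at -1.74 with the GC trend removed. Slc25a48 had 19 to 148 counts per library at E18.5, most in libraries 3 and 4, and 2 to 19 at 2 wks. Its fall of 1.96 (SE 0.69, adjusted p = 0.0225) was lost without those libraries together (-0.74), without library 4 of E18.5 (-1.41) and without library 1, 2 or 4 of 2 wks (-1.67 to -1.75), and the value was -3.10 without library 3 of 2 wks. Slc25a46, a protein of the outer membrane that acts in mitochondrial dynamics, did not pass (-0.13, SE 0.19, adjusted p = 0.555). It was called lower with total counts (-1.05) and higher with the GC trend removed.

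Carriers that share a substrate were compared as ratios of counts within a library. On the TMM scale Slc25a25 and Slc25a23 both rose, as did Slc25a34 and Slc25a35. In the other pairs, and against Slc25a24, the form that rose stood beside one that fell or stayed. Of all tested genes 31.5% rose between E18.5 and 2 wks, so a partner that did not rise was the usual case. The ratio of Slc25a25 to Slc25a24 went from 0.0443 to 0.147 at E18.5 up to 15.1 to 24.3 at 2 wks and 15.6 to 27.2 at 7 wks, so that Slc25a24 led in all fetal libraries and Slc25a25 in all later ones. Slc25a23 also passed Slc25a24, at a ratio of 0.0930 to 0.471 at E18.5 and 3.902 to 6.646 at 2 wks. The ratio of Slc25a12 to Slc25a13 was 21.6 to 33.8 at E18.5, then 415.7 to 670.0 at 2 wks and 897.1 to 1210 at 7 wks, with no overlap of ages. For Slc25a22 to Slc25a18 it was 8.35 to 30.3 at E18.5 and 51.9 to 101.6 at 2 wks. For the mitoferrins Slc25a28 to Slc25a37 it was 0.160 to 0.385 at E18.5 and 0.747 to 0.846 at 2 wks. Slc25a33 to Slc25a36 (0.0441 to 0.108, then 0.253 to 0.476) and Slc25a39 to Slc25a40 (0.308 to 2.11, then 5.14 to 7.14) also did not overlap between E18.5 and 2 wks. Slc25a34 to Slc25a35 overlapped, at 0.543 to 1.98 and 1.57 to 3.29. These ratios are on the scale of counts, not per length, and are given as descriptions with no test. They also keep any trend over GC content, in which some pairs differ. With that trend removed Slc25a36 and Slc25a40 were at 0.21 and 0.20 at 2 wks against E18.5 and no longer fell. Slc25a28 then rose by 0.40, Slc25a39 lost its call and Slc25a37 gained one.

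**Figure D4:**
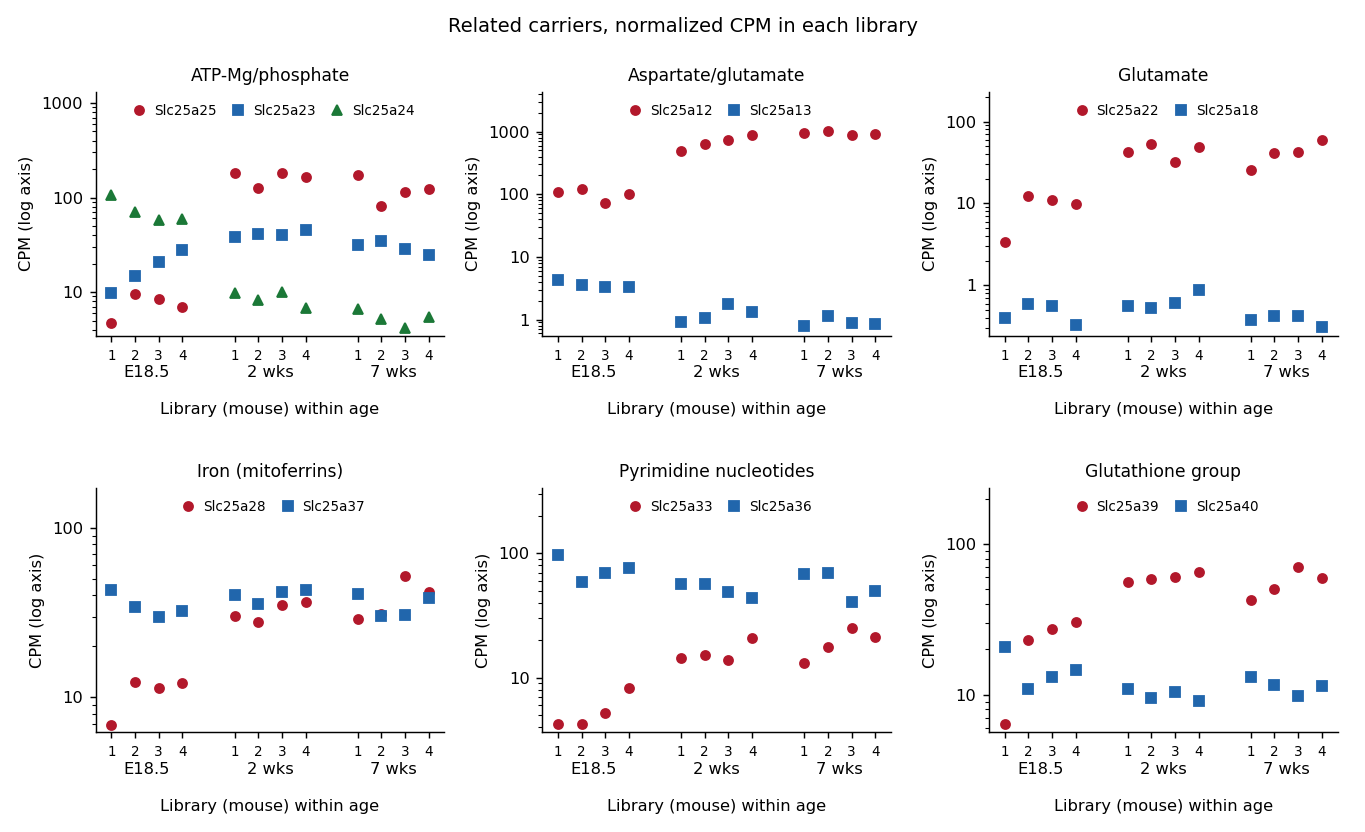
Related carriers in each library, as normalized CPM on log axes that differ between the 6 panels, with each point a mouse. Slc25a25 and Slc25a24 crossed between E18.5 and 2 wks, at ratios of 0.0443 to 0.147 and 15.1 to 24.3, while Slc25a12 stayed above Slc25a13 throughout and drew further away.

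Between 2 and 7 wks fewer members moved and none by more than 1.03 on the log2 scale among those called. By edgeR's test 8 of 46 passed, 5 higher and 3 lower, where 27.5% of all tested genes passed, 13.5% upwards and 13.9% downwards. Without library 1 of 2 wks 5 passed, 3 higher and 2 lower, beside 3472 of 19871 tested genes. With total counts 10 passed and all 10 were lower, where 948 of all tested genes were called higher and 5391 lower. From the 8 libraries of these ages alone 16 passed, 7 of them higher, beside 6171 of 16913 tested genes, 3044 of them higher. Over members the median log2 fold change was 0.09 and -0.03 over all tested genes. The 5 called members that rose were Slc25a15, Slc25a27 and, of the cofactor group, Slc25a16, Slc25a26 and Slc25a32. All lost their calls with total counts, and that of Slc25a16 was made in 9 of 23 settings.

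Slc25a32 was at 23.4, 14.1, 19.3 and 31.4 CPM at E18.5, at 13.7, 13.7, 20.9 and 18.8 CPM at 2 wks and at 35.7, 32.8, 26.7 and 29.0 CPM at 7 wks. The libraries of 2 and 7 wks did not overlap, and its rise of 0.89 (SE 0.23, adjusted p = 0.0109) was the largest of this interval. Slc25a26 was at 2.82, 4.40, 3.96 and 4.84 CPM at E18.5, at 13.6, 14.6, 15.1 and 17.9 CPM at 2 wks and at 21.2, 23.4, 33.0 and 27.2 CPM at 7 wks. It rose in both intervals with no overlap, by 0.78 (SE 0.19, adjusted p = 0.00808) in the second. Slc25a27 was at 11.6, 8.64, 8.47 and 7.94 CPM at E18.5, at 11.1, 11.7, 9.20 and 12.5 CPM at 2 wks and at 16.6, 14.1, 19.8 and 18.8 CPM at 7 wks. Only its libraries of 7 wks stood apart, and the rise was 0.64 (SE 0.17, adjusted p = 0.0129). Slc25a15 rose by 0.49 (SE 0.13, adjusted p = 0.0124), a call lost without library 1 of 2 wks (0.43). Slc25a16 rose by 0.58 (SE 0.20, adjusted p = 0.0449), a call made in 9 of 23 settings, the usual one included, and lost without single libraries, namely library 3 of E18.5, each library of 2 wks and libraries 1, 2 and 4 of 7 wks (0.50 to 0.62).

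The falls of this interval were those of Slc25a5 and Slc25a24, given above, and of Slc25a45. Slc25a45 was at 2.76, 4.92, 4.97 and 3.85 CPM at E18.5, at 8.64, 7.42, 7.99 and 7.60 CPM at 2 wks and at 4.53, 4.56, 4.27 and 4.68 CPM at 7 wks. It was highest at 2 wks in every library, and the levels of E18.5 and 7 wks overlapped. The fall was 0.81 (SE 0.19, adjusted p = 0.00689). The rises of this interval lost their calls with total counts, at values of 0.14 to 0.56, while the falls of Slc25a5, Slc25a45 and Slc25a24 kept theirs.

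The changes of both intervals were set against each other in a contrast of their own, in which 38.4% of all tested genes passed. Of the members 22 of 46 passed, 19 with the higher value in the first interval and 3 in the second, against 11 and 15 with total counts and 13 and 3 after removal of the GC trend. For all tested genes these counts were 4163 and 3235, then 2329 and 6104 with total counts and 3973 and 2173 after removal of the GC trend. Slc25a25 (difference 4.88, SE 0.40, adjusted p = 2.56e-06) and Slc25a4 (3.39, SE 0.39, adjusted p = 4.63e-05) differed most in favour of the first. Slc25a45, which rose and then fell, had a difference of 1.75 (SE 0.32, adjusted p = 0.00117). Slc25a24 (-2.37, SE 0.39), Slc25a32 (-1.28, SE 0.40) and Slc25a14 (-1.18, SE 0.38) had the lower value in the first interval. For Slc25a5 the intervals were not shown to differ (0.60, SE 0.35, adjusted p = 0.196).

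Over the whole span, 34 of 46 members differed between 7 wks and E18.5, 25 higher and 9 lower, where 71.4% of all tested genes passed, 34.3% higher and 37.1% lower. With total counts 36 members passed, 12 higher and 24 lower, where 2293 of all tested genes were called higher and 13296 lower. Slc25a4 was higher by 3.60 (SE 0.26, adjusted p = 5.43e-08) and Slc25a5 lower by 1.47 (SE 0.21, adjusted p = 2.78e-05). Members that passed only one step, or none, added up over both. Slc25a15 was higher by 0.74 (SE 0.13), Slc25a16 by 0.73 (SE 0.20), Slc25a27 by 0.92 (SE 0.17) and Slc25a44 by 0.93 (SE 0.23), and with total counts all 4 were lower, by 0.36 to 0.54.

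Other mitochondrial genes give the setting of these changes. Counts for the lists below stand beside all tested genes, of which 65.7% passed between E18.5 and 2 wks, 31.5% upwards and 34.2% downwards. Of 5 carrier-family genes with other symbols, 3 rose and 1 fell between E18.5 and 2 wks. Ucp3, the uncoupling protein of muscle, rose by 5.42 (SE 0.28, adjusted p = 9.36e-09), from 4.17 to 7.68 CPM to 219.5 to 265.6 CPM. Ucp2 rose by 1.34 (SE 0.29) and then fell by 1.85 between 2 and 7 wks (adjusted p = 6.52e-04). The gene that fell was Ucp1, whose fetal counts came from libraries 3 and 4.

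Of 21 other mitochondrial transporters 15 rose and 4 fell, where 31.5% of all tested genes rose and 34.2% fell. Their median log2 fold change was 0.99. The pyruvate carrier genes Mpc1 and Mpc2 rose by 2.51 (SE 0.20) and 2.19 (SE 0.29), and the porin Vdac1 of the outer membrane by 1.91 (SE 0.16). The serine transporter Sfxn1 fell by 2.53 (SE 0.40), with 15.5 and 16.2 CPM in libraries 1 and 2 of E18.5, 59.9 and 55.7 CPM in libraries 3 and 4 and at most 7.06 CPM at 2 wks. Mcu, the pore of the calcium uniporter, did not pass (-0.07, SE 0.14, adjusted p = 0.655).

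Of 10 genes taken as a measure of mitochondrial content 8 rose and 1 fell, with a median of 1.05, where 31.5% of all tested genes rose and 34.2% fell. Citrate synthase Cs rose by 1.13 (SE 0.31) and the ATP synthase subunit Atp5f1a by 2.10 (SE 0.21), while the matrix chaperonin Hspd1 fell by 1.03 (SE 0.23). The content genes summed to 3031 and 2747 CPM in libraries 1 and 2 of E18.5 and to 3874 and 5857 CPM in libraries 3 and 4. Cs was at 364.0 and 401.1 CPM against 659.3 and 1151 CPM. Changes of these genes without libraries 3 and 4 are not given here. Of 7 genes that import carriers into the inner membrane 3 rose and 2 fell, a share called that was near the 65.7% of all tested genes. The channel Timm22 rose by 1.198 (SE 0.13) and the small chaperone Timm10 by 1.45 (SE 0.23). Slc25a4, Slc25a25 and Slc25a12 rose by more than any of the 10 content genes, whose log2 fold changes ran from -1.03 to 2.10. So did Slc25a41 (3.24, from 4 to 12 counts per library), Slc25a29 (3.03), Slc25a34 (2.55), Slc25a22 (2.26, SE 0.35) and Slc25a11 (2.26, SE 0.18), the last 2 close to Atp5f1a. With the GC trend removed the rises of Slc25a29, Slc25a34 and Slc25a22 were smaller, as given above, and content genes are not given in that setting. Genes of the other lists also rose by more than the content genes, namely Ucp3 (5.42), Mpc1 (2.51), Smdt1 (2.34), Mpc2 (2.19) and Abcb8 (2.11). The 6 markers of muscle fibres rose by 1.405 to 7.65, with a median of 3.23. Between 2 and 7 wks 6 of the 21 transporters passed, 5 higher and 1 lower, and 1 gene each of the content and import lists, both higher. Of all tested genes 27.5% passed in this interval, so the share of transporters was near that of all genes.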

How the data were processed

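Libraries were made from TA muscle RNA of WT mice with a stranded polyA kit. The authors trimmed the reads with cutadapt 1.10 and mapped them with STAR 2.5.3a. The deposited values are raw counts per Ensembl gene, made by the authors with HTSeq 0.6.1p1 per the labels. The labels name the mm10 build and the study's methods GRCm39. The counts carry no coordinates, and the strand setting and annotation of the counting are not given in the sources used here. Of the members, 24 overlap a counted gene on the opposite strand, Slc25a5, Slc25a12, Slc25a24 and Slc25a25 among them, and 6 on the same strand, where reads may have been shared.

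Symbols and coordinates come from GENCODE vM39 on GRCm39, which held 51477 of the 55450 identifiers. Counts were scaled by TMM and tested by quasi-likelihood with edgeR 4.0.16 (R 4.3.3), in a single fit of 12 libraries with age as the only term, after a filter that left 19276 genes and removed 36174. P-values were adjusted by Benjamini-Hochberg over all tested genes, with a threshold of 0.05. The biological coefficient of variation was 0.279, and at these depths counting error was small beside it except for members with few counts. The study's own transcript comparison was not run on gene counts. The ratio of Slc25a4 to Slc25a5 was tested by exact permutation. None of the 18 pairs of libraries within an age were copies, since each differed beyond counting error.

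Values for every library are given for Slc25a4, Slc25a5 and, among called members with a log2 CPM averaging 1 or more, the 5 largest rises and falls to 2 wks and the 3 largest of each from 2 to 7 wks. The members, lists and tests were chosen with earlier results of these data known. Alternatives were other scalings, DESeq2 1.42.0, other filters, removal of the GC trend, a log2 fold change beyond 1, only the libraries of the ages compared, the replicate number as a block and each library left out. Leaving out libraries 3 and 4 of E18.5 together was added after seeing the data. The scripts were tested on simulated counts. The values of 1 member are not reported here, although it is part of the counts over members.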

Additional observations from a re-analysis of the deposited data

Results flagged for a closer look

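In 10 of 138 sets of 4 libraries (46 members at 3 ages), 1 library lay far from the other 3 by Dixon's test. Chance flags about 1 in 20 such sets, or 6.9 here. At E18.5 library 1 was high for Slc25a14 (4.61 CPM against 2.82 to 3.10) and Slc25a53 (4.65 against 3.45 to 3.59) and low for Slc25a28 (6.90 against 11.4 to 12.3), and library 3 was high for Slc25a41 (0.0585 against 0.0249 to 0.02896). At 2 wks library 4 was high for Slc25a29 (12.3 against 7.83 to 8.47) and Slc25a34 (42.8 against 16.1 to 19.8), and library 3 for Slc25a48 (0.260 against 0.0335 to 0.0522). At 7 wks library 3 was high for Slc25a1 (5.07 against 2.65 to 3.03), library 4 for Slc25a31 (0.346 against 0.124 to 0.160), and library 1 was low for Slc25a20 (133.7 against 164.9 to 169.8).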

How the results depend on the processing

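The cause of the changes below was not tested, except where an alternative leaves too few libraries for its test. Asking for a log2 fold change beyond 1 left 19 called members for 2 wks against E18.5, 0 for 7 wks against 2 wks (8 by the usual edgeR test, 9 by DESeq2), 20 for 7 wks against E18.5 and 10 for the contrast of intervals. Of all 19276 tested genes it left 5507, 561, 7574 and 2463 in the same order. For 7 wks against 2 wks, 16 were called from the 8 libraries alone, and 5 to 10 when single libraries were left out. Of all tested genes 6171 and 3472 to 6146 were called in these settings. With total counts, values for 2 wks against E18.5 changed sign for Slc25a42 (-0.14), Slc25a18 (-0.49), Slc25a30 (-0.39), Slc25a27 (-0.65), Slc25a10 (-0.70), Slc25a15 (-0.68), Slc25a37 (-0.72), Slc25a44 (-0.50) and Slc25a16 (-0.78), 9 members in all. For 7 wks against 2 wks they did so for 13 members, of which 0 had been called, Slc25a4 (-0.24) among them. For 7 wks against E18.5 they did so for 14, of which 8 had been called, namely Slc25a27 (-0.36), Slc25a15 (-0.53), Slc25a44 (-0.36), Slc25a16 (-0.54), Slc25a20 (-0.0073), Slc25a23 (-0.58), Slc25a30 (-0.45) and Slc25a35 (-0.23). With the GC trend removed, 7 and 2 members changed sign in these last comparisons, of which 0 had been called, and for 2 wks against E18.5 the sign changed for Slc25a32 (0.33), Slc25a46 (0.63), Slc25a10 (-0.31), Slc25a36 (0.21), Slc25a51 (0.069) and Slc25a40 (0.20). With single libraries left out, values for 2 wks against E18.5 ran from -0.27 to 0.012 for Slc25a46, with library 1 of E18.5 turning the sign, from -0.060 to 0.80 for Slc25a10, with the same library, and from -0.0057 to 0.35 for Slc25a16, with library 2 of E18.5. For Slc25a4 from 2 to 7 wks they ran from -0.072 to 0.25, with library 3 of 7 wks. Without libraries 3 and 4 of E18.5, an alternative added after seeing the data, Slc25a51 was at 0.13. Some members gained a call for 2 wks against E18.5. With total counts Slc25a5, Slc25a15, Slc25a16, Slc25a27, Slc25a32, Slc25a37, Slc25a46 and Slc25a51 were called lower. With the GC trend removed Slc25a15, Slc25a16, Slc25a27, Slc25a37 and Slc25a46 were called higher.

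The log2 ratio of Slc25a4 to Slc25a5 kept its direction in every alternative, but fewer libraries cannot reach the threshold. With single libraries left out it differed by 3.70 to 4.09, 0.96 to 1.29 and 4.80 to 5.19 for the 3 comparisons (exact p = 0.0571, the smallest that 4 against 3 allow). Without libraries 3 and 4 of E18.5 it differed by 3.37 and 4.47 (exact p = 0.133). With the replicate block, as 4 pairs, the differences of 3.91, 1.099 and 5.01 had exact p = 0.125, the smallest possible. Correlations between same-numbered libraries were -0.28 to 0.51, 5 of 12 over 0.1, and those between differently numbered ones -0.50 to 0.38. The highest was that of library 1 of E18.5 with library 1 of 7 wks. The numbers are not stated to pair animals and were not taken as pairs. In the replicate block 36, 8 and 24 members were called for the first interval, the second and their contrast, against 34, 8 and 22. Of all tested genes the block called 12470, 5148 and 7287, against 12668, 5295 and 7398. It added Slc25a42 (adjusted p = 0.0362) and Slc25a44 (0.50, adjusted p = 0.0350, edgeR) to the calls of the first interval and lost none of them, and in the second it added Slc25a51 (0.53, adjusted p = 0.0300) and lost Slc25a16 (0.58, adjusted p = 0.0564). Members with under 100 counts in most libraries, such as Slc25a2, Slc25a21, Slc25a41, Slc25a43 and Slc25a48, are limited by depth.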

Other observations

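Promoters of the family were searched for letters known as binding motifs of factors that act on mitochondrial genes, in RefSeq windows of 250 bases before to 50 after the start of a transcript (GRCm38.p6), on both strands. The ERR motif TCAAGGTCA was in 0 of the 46 windows found for 36 members, and in 0.423% of all 32851 windows. The NRF1 letters GCGCATGCG were in 0 of 46 and in 1.75% of all windows. No match says only that these letters are not in these windows.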
